A study of Homo sapiens with 4 samples.

Results

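The carcinoembryonic antigen-related cell adhesion molecules (CEACAM) are surface glycoproteins of the immunoglobulin superfamily, and 5 of their genes, CEACAM1, CEACAM5, CEACAM6, CEACAM7 and CEACAM19, were followed here in a lung squamous carcinoma line with reduced p63. They were taken by gene symbol from a table of 25369 genes and were selected on their measured counts in the p63 hairpin libraries against the control libraries. Their values in that comparison are therefore a description, given without a test. The cells were H226, a long-established line from a human lung squamous cell carcinoma, with an inducible short hairpin RNA, and poly(A)+ RNA was sequenced. In 2 cultures the hairpin was directed at p63 (shp63), and in 2 cultures it was a control hairpin named non-targeting in the deposited column names (shControl). All 4 cultures were grown for 6 days in doxycycline at 1 µg/mL, so that no group without doxycycline is included, and the labels name 1 construct per group. Loss of p63 and any other action of that hairpin therefore cannot be told apart. The 2 samples of a group are described by the submitters as independent biological replicates.

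CEACAM proteins carry an amino-terminal V-type immunoglobulin domain, followed in several members by further immunoglobulin domains, and bind each other on neighbouring cells. CEACAM1 spans the membrane, and its long isoform carries tyrosine motifs that recruit the phosphatases SHP-1 and SHP-2. CEACAM5 (carcinoembryonic antigen, the serum tumour marker), CEACAM6 and CEACAM7 are held at the surface by a glycosylphosphatidylinositol (GPI) anchor. CEACAM5 and CEACAM6 are made by mucosal epithelia and by many carcinomas, those of the lung included, and CEACAM7 mainly by colonic epithelium. CEACAM3 and CEACAM8 are proteins of granulocytes. CEACAM19 is a distant member with a transmembrane segment.

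All 5 genes lie on the long arm of chromosome 19. In GRCh37, the build used by the authors, CEACAM7 lies at chr19:42177231-42210895 on the minus strand, CEACAM5 at chr19:42212504-42234353 on the plus strand and CEACAM6 at chr19:42254885-42276116 on the plus strand. CEACAM7 and CEACAM5 are thus head to head, 1.61 kb apart, and CEACAM6 follows 20.5 kb further on. CEACAM1 lies at chr19:43011456-43065386 on the minus strand, 735 kb beyond CEACAM6. CEACAM19 lies at chr19:45165545-45187631 on the plus strand, a further 2100 kb away.

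The coding sequences differ in how alike they are, which bears on how reads are assigned. The first 60 coding bases of the canonical GENCODE transcripts are shown in lower case where they match CEACAM6 and in capitals where they differ, with the granulocyte gene CEACAM8 for comparison.
CEACAM6: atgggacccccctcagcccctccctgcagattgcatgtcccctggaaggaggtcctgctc
CEACAM5: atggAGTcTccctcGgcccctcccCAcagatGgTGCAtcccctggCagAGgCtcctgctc
CEACAM1: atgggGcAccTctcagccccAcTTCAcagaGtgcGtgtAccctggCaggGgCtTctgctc
CEACAM7: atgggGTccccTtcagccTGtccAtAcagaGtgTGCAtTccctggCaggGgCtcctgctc
CEACAM8: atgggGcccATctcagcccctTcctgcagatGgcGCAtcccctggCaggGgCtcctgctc
CEACAM19: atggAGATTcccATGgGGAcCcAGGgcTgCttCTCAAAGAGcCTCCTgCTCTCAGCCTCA
CEACAM5 and CEACAM7 differ from CEACAM6 at 16 of these bases each, CEACAM1 at 15 and CEACAM8 at 11, whereas CEACAM19 differs at 43. Over the whole aligned coding sequence CEACAM6 shared 87.5% of bases with CEACAM5, 86.7% with CEACAM1 and 80.4% with CEACAM7. CEACAM19 could not be aligned with CEACAM6 beyond 15 bases at this setting.

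The longest identical coding runs show where a short read could come from either gene. CEACAM6 and CEACAM5 share 65 bases from coding base 752, and CEACAM6 and CEACAM1 share 71 bases from coding base 289.
CEACAM6 and CEACAM5: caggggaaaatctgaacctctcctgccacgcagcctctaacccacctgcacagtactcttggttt
CEACAM6 and CEACAM1: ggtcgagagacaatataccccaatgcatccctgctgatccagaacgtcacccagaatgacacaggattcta
Of the 50-base windows of the canonical CEACAM6 transcript, 8.25% occurred unchanged in an annotated transcript of another gene. The share was 6.26% for CEACAM5, 4.18% for CEACAM1 and 0% for both CEACAM7 and CEACAM19. With 100-base windows it was 2.04% for CEACAM6, 1.91% for CEACAM5 and 0.531% for CEACAM1. For CEACAM5 and CEACAM6 all of these longer shared windows lay in 1 annotated gene, ENSG00000267881, which overlaps 21778 bases of CEACAM5 and 5761 bases of CEACAM6 on the same strand and has no row of its own in the count table. ENSG00000267881 also held 3.97% of the 50-base windows of CEACAM6 and 3.71% of those of CEACAM5. Windows of 50 bases shared between CEACAM6 and CEACAM5 were 1.57% of those of CEACAM6 and 1.16% of those of CEACAM5. Read length and the treatment of reads with several alignments are not given in the sources used here. The counts of CEACAM1, CEACAM5 and CEACAM6 are therefore uncertain as far as paralogs share reads. CEACAM7 shared no exact window of 50 or 100 bases. Near matches were not searched.

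The deposited values were raw read counts, and the libraries summed to 51926832 to 53924761 counts. Correlations of log2(CPM + 1), where CPM is counts per 1000000 reads scaled with TMM factors, across the tested genes were 0.999 within both groups and 0.966 to 0.968 between groups. TP63, the target of the hairpin, had 1596 and 1530 reads in shp63, against 7533 and 7364 reads in shControl, and averaged 30.6 ± 0.116 CPM in shp63 and 136 ± 0.798 CPM in shControl (SD, n = 2 each). Markers of squamous epithelium were present in the line, with TRIM29 at 498 CPM in shp63 and 1042 CPM in shControl. SOX2, a squamous lineage factor, had only 3 reads or fewer in shp63 and 14 reads or fewer in shControl. It passed the filter on low counts only through its reads in shControl. Of the 10 squamous markers 9, TP63 itself among them, were lower in shp63 and 1 (KRT6A) was higher, where 37.1% of all tested genes were lower and 36.9% higher (edgeR quasi-likelihood test, Benjamini-Hochberg adjusted p under 0.05 over 14901 tested genes). Since these are bulk RNA values, fewer cells of a kind and less RNA per cell cannot be told apart.

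CEACAM6 carried most of the family's reads. It had 33381 and 31714 reads in the shp63 libraries, against 1005 and 991 reads in the shControl libraries. Both shp63 libraries lay far above both shControl libraries, and replicates were close together. CEACAM6 averaged 637 ± 6.47 in shp63 and 18.3 ± 0.219 in shControl (SD, n = 2 each), a fitted 34.9-fold higher level (log2 fold change 5.12, SE 0.04). Only 13 of the 14901 tested genes had a larger fitted log2 fold change. Per kilobase of its canonical transcript CEACAM6 reached 246 CPM in shp63, where 247 of 13178 tested genes with a known length were higher, against 7.05 CPM per kilobase in shControl, where 6904 were higher.

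CEACAM5 was much rarer. It had 82 and 78 reads in shp63, against 4 and 3 reads in shControl, or 1.57 ± 0.0146 CPM in shp63 and 0.0640 ± 0.0116 CPM in shControl (SD, n = 2 each). The fitted fold was 23.6 (log2 fold change 4.56, SE 0.34). With so few control reads the ratio of summed reads had an exact 95% interval from 11.6 to 61.7, which covers counting error only. The groups did not overlap, but the level in shp63 was 0.447 CPM per kilobase, against 246 for CEACAM6.

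CEACAM1, the member with a signalling tail, had 305 and 285 reads in shp63, against 65 and 41 reads in shControl. It averaged 5.77 ± 0.126 CPM in shp63 and 0.968 ± 0.290 CPM in shControl (SD, n = 2 each), a fitted 5.94-fold higher level (log2 fold change 2.57, SE 0.15). The groups did not overlap. The 2 shControl libraries stood further apart from each other (0.620 on the log2 scale) than the shp63 libraries (0.0447), where the median gene differed by 0.0559 between shControl replicates. The exact counting intervals of the 2 shControl counts were 50.2 to 82.9 reads and 29.4 to 55.6 reads. They overlapped, which does not show that the 2 counts differ by counting error alone. Gene counts do not separate the long and short CEACAM1 isoforms.

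CEACAM19 had 738 and 648 reads in shp63, against 423 and 407 reads in shControl. It averaged 13.6 ± 0.893 CPM in shp63 and 7.60 ± 0.0409 CPM in shControl (SD, n = 2 each), a fitted 1.78-fold higher level (log2 fold change 0.84, SE 0.07). The groups did not overlap, and 1755 tested genes had a larger fitted log2 fold change. CEACAM19 was the second member by level and the one with the smallest fold among the 4 with enough reads for a fit. Its annotated span overlaps that of PVR, the poliovirus receptor gene, on the same strand over 3886 bases. PVR was at 76.7 CPM in shp63 and 79.7 CPM in shControl (adjusted p = 0.215, edgeR with Benjamini-Hochberg).

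CEACAM7, the gene next to CEACAM5, had 1 read in each shp63 library and 0 reads in each shControl library. The 0 reads allow up to 3 reads per library, a level of 0.0541 and 0.0558 CPM, so no fold is given. CEACAM7 did not pass the filter on low counts. The other 4 members passed it, CEACAM5 only through its reads in shp63. All 4 were called higher by the fit across all genes, beside 36.9% of all tested genes called higher, 37.1% called lower and 74% called in either direction. Their groups did not overlap, which held with shp63 above shControl for 42.8% of all tested genes and in either direction for 86.4%. CEACAM6, CEACAM5 and CEACAM1 also had a fitted log2 fold change of at least 1, beside 9.17% of all tested genes that were called with such a change. The members were picked with this contrast in view, so nothing is read from these counts.

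**Figure D1:**
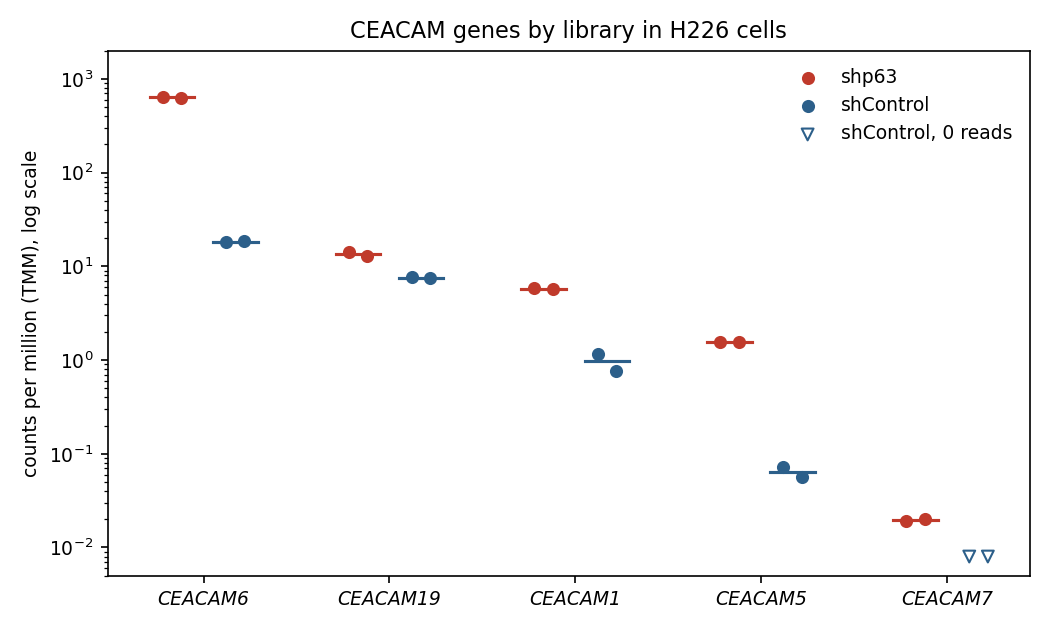
CPM (TMM-scaled, log axis) of the 5 CEACAM genes in each library, shp63 in red and shControl in blue, with 1 point per library and a bar at the group mean. CEACAM6 stands at 637 CPM in shp63 and 18.3 CPM in shControl, CEACAM19 differs least, and open triangles at the foot, off the scale, mark the 0 reads of CEACAM7 in shControl.

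The order of levels per kilobase was CEACAM6, CEACAM19, CEACAM1, CEACAM5 and CEACAM7 in both groups. In shp63 these were 246 ± 2.50, 6.12 ± 0.403, 1.65 ± 0.0362, 0.447 ± 0.00416 and 0.00824 ± 0.000215 CPM per kilobase (SD, n = 2). In shControl they were 7.05 ± 0.0844, 3.43 ± 0.0184, 0.277 ± 0.0830, 0.0183 ± 0.00330 and 0 CPM per kilobase. Neighbours in this order lay further apart than their replicates, except that CEACAM5 and CEACAM7 in shControl were not separable at this depth, since CEACAM5 had 4 and 3 reads there and 0 reads allow up to 3.

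The make-up of the family's reads differed between the groups. CEACAM6 made up 96.7% and 96.9% of all reads on CEACAM symbols in shp63, against 67.0% and 68.5% in shControl. CEACAM19 made up 2.14% and 1.98% in shp63, against 28.2% and 28.1% in shControl. These shares follow from the counts the genes were selected on and are given without a test.

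The share of CEACAM5 beside CEACAM6 was poorly determined in shControl, where it rests on 4 and 3 reads. Of the reads on the pair, 0.245% and 0.245% were CEACAM5 in shp63, against 0.396% and 0.302% in shControl. The exact 95% intervals were 0.195% to 0.304% and 0.194% to 0.306% in the shp63 libraries, and 0.108% to 1.01% and 0.0623% to 0.880% in the shControl libraries. These intervals cover counting error only, and those of shControl are too wide to show whether the share differed. Whether CEACAM6 reads assigned to CEACAM5 make up part of the CEACAM5 count was not tested. CEACAM1 made up 0.905% and 0.891% of the summed CEACAM1 and CEACAM6 reads in shp63, against 6.07% and 3.97% in shControl, given here as a description. CEACAM8, whose coding sequence is 87.2% identical to that of CEACAM6, had 2 and 1 reads in shp63 and 2 and 1 reads in shControl.

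**Figure D2:**
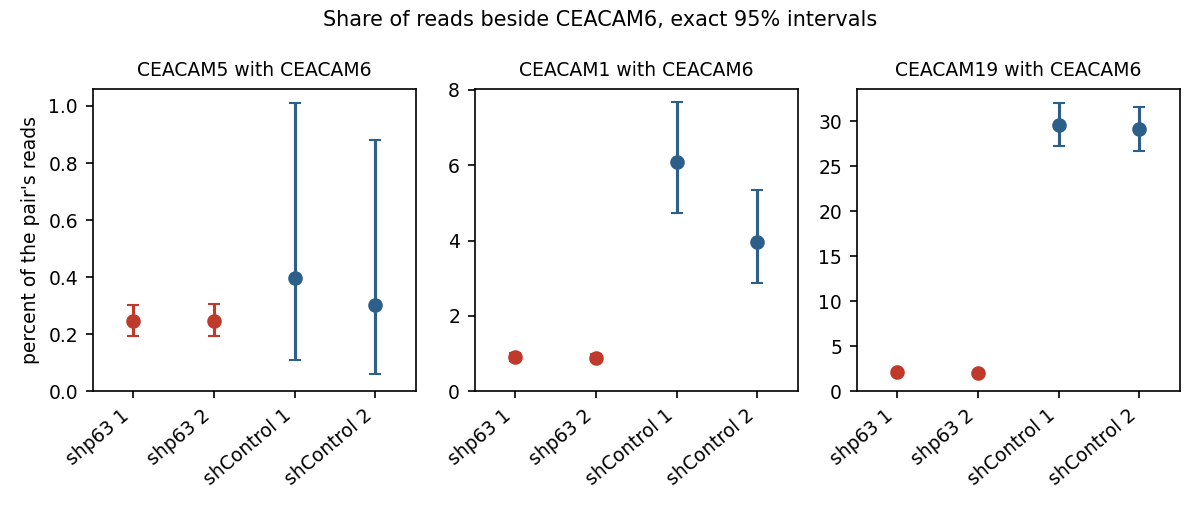
Share of CEACAM5, CEACAM1 and CEACAM19 in the summed reads of each with CEACAM6, in percent, for 2 shp63 (red) and 2 shControl (blue) libraries, with exact binomial 95% intervals (counting error only) as bars. The CEACAM5 share lies between 0.245% and 0.396%, with wide intervals in shControl, and the plotted shares of CEACAM1 and CEACAM19 are lower in shp63.

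The remaining CEACAM genes were nearly silent. CEACAM3, CEACAM4, CEACAM8, CEACAM16, CEACAM18, CEACAM20, CEACAM21 and the pseudogene CEACAM22P had 4 reads or fewer in every library, and none of the 8 passed the filter. Together they came to 5 and 3 reads in shp63, against 3 and 5 reads in shControl. The granulocyte member CEACAM3 had 2 and 0 reads in shp63 and 0 reads in both shControl libraries. Of 12 neutrophil markers 7 had any read. Their summed level was 0.961 to 1.38 CPM in shp63 and 4.91 to 5.41 CPM in shControl, where most of it was CXCR2, and FCGR3B, FPR1, CTSG and MNDA were at 0 reads in all 4 libraries.

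Markers of tissues known for CEACAM5 and CEACAM6 were looked at beside these values. Of 12 airway secretory and alveolar listed in the counts, 8 had reads and 5 were tested, of which AGR2 and MUC5B were higher and NKX2-1 lower. AGR2, which encodes a secretory-pathway isomerase of mucous cells, was at 8.28 ± 0.105 CPM in shp63 and 3.06 ± 0.645 CPM in shControl, and MUC5B, a gel-forming mucin gene, at 8.11 ± 0.162 CPM in shp63 and 5.29 ± 0.687 CPM in shControl (SD, n = 2 each). The summed level was 19.7 to 19.9 CPM in shp63 and 11.8 to 13.3 CPM in shControl, with SFTPA1, SCGB3A1, SCGB3A2 and TFF3 at 0 reads. Of 10 colonic markers 7 had reads and 3 were tested, of which VIL1 was higher, MUC2 lower and LGALS4 not called. VIL1, the gene of the microvillus protein villin, was at 4.62 CPM in shp63 and 2.43 CPM in shControl, and MUC2, a gel-forming mucin gene, at 0.224 CPM in shp63 and 0.532 CPM in shControl. The summed level of the list, most of it VIL1, was 5.43 to 6.17 CPM in shp63 and 3.45 to 4.30 CPM in shControl, with CDX1, CDX2 and KRT20 at 0 reads. Of 12 leukocyte markers 10 had reads and 5 were tested, of which CD14, CD68 and LYZ were higher, ITGAM lower and LAPTM5 not called, with a sum of 76.0 to 80.0 CPM in shp63 and 14.4 to 15.8 CPM in shControl. Nearly all of that sum was CD14 and CD68, while PTPRC, the pan-leukocyte marker, had 8 reads or fewer in each library. LYZ, with 33 and 21 reads in shp63 and 1 read in each shControl library, passed the filter on low counts only through shp63. MUC2, with 14 and 9 reads in shp63 and 26 and 32 in shControl, passed it only through shControl. Beside the calls in these lists, 36.9% of all tested genes were higher and 37.1% lower. The part of these markers in the CEACAM values was not tested.

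The promoters of CEACAM6, CEACAM5, CEACAM7 and CEACAM1 are themselves alike, and are shown for the 200 bases before the annotated start (RefSeq, GRCh38.p14). They are read 5′ to 3′ on the strand of each gene, at chr19:41755330-41755529 (plus) for CEACAM6, chr19:41708426-41708625 (plus) for CEACAM5, chr19:41688271-41688470 (minus) for CEACAM7 and chr19:42528482-42528681 (minus) for CEACAM1. Capitals mark E-boxes (CANNTG) and, in CEACAM6, a stretch with a pair of overlapping matches to the 10-base half-site of the p53 family. Full sites of this family, which includes p63, were not searched for.
CEACAM6: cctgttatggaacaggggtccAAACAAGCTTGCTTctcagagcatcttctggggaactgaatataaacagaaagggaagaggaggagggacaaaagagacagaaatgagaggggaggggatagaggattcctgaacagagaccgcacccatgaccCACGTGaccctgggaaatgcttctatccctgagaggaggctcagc
CEACAM5: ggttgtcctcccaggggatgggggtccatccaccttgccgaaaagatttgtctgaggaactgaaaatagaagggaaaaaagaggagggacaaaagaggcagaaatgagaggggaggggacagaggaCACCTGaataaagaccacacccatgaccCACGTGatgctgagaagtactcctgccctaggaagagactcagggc
CEACAM7: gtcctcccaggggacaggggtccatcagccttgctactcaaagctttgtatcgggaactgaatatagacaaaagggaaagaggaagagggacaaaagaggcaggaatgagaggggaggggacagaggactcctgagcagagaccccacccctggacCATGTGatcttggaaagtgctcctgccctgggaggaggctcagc
CEACAM1: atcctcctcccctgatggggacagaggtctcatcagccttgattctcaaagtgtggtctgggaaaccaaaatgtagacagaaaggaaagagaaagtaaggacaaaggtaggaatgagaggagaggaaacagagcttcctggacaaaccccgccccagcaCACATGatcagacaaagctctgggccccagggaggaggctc
Over the full windows of 250 bases before and 50 after the start, CEACAM6 was 78.8% identical to CEACAM5, 81.5% to CEACAM7 and 71.8% to CEACAM1.

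Motifs were searched on both strands of those windows. The E-box CACGTG, to which the factors USF1 and USF2 bind in the known CEACAM5 promoter, begins 45 bases before the start in CEACAM6 and 46 bases before it in CEACAM5. At the matching place CEACAM7 has CATGTG and CEACAM1 has CACATG. The first of these E-boxes, CACGTG, occurred in 7.26% of 35116 promoter windows, and any CANNTG in 68.7%. The p53-family half-site matched in 6.63% of windows and, among the 4 CEACAM windows shown, in that of CEACAM6. The interferon regulatory factor motif, a pair of GAAA repeats with 2 bases between them, occurred in 3.57% of windows and, among the 4, in CEACAM1. The GC box GGGCGG (45.0% of windows) was found in CEACAM6 and CEACAM1, TATAAA (11.5%) in CEACAM6, and TGANTCA, the AP-1 motif (7.71%), in none of the 4. These matches describe letters in the windows and are not evidence of binding.

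Genes known to act on CEACAM promoters or CEACAM1 splicing moved in both directions. Of 13 such genes 6 were higher and 7 lower in shp63 (46.2% and 53.8%, beside 36.9% and 37.1% of all tested genes). Over this list the median log2 fold change was -0.15, against -0.01 over all tested genes. SOX9, a transcription factor in this list, averaged 50.4 ± 0.209 CPM in shp63 and 18.0 ± 1.21 CPM in shControl (SD, n = 2 each). It was 2.80-fold higher in shp63. IRF1, an interferon-responsive activator of CEACAM1, was 1.55-fold higher, with 149 ± 0.847 CPM in shp63 and 95.9 ± 2.08 CPM in shControl. USF1 was at 39.0 CPM in shp63 and 31.5 CPM in shControl, and USF2 at 115 CPM in shp63 and 87.9 CPM in shControl, both called higher. The splicing regulators HNRNPA1 and HNRNPL were lower, at 126 ± 2.41 and 196 ± 0.402 CPM in shp63, against 251 ± 2.24 and 280 ± 0.983 CPM in shControl. The adjusted p was 1.02e-17 for SOX9, 1.24e-13 for IRF1, 5.15e-18 for HNRNPA1 and 3.74e-13 for HNRNPL (edgeR with Benjamini-Hochberg).

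Partners of CEACAM1 at the membrane also went both ways. Of 18 tested genes 8 were higher, 8 lower and 2 not called. The higher and lower shares were 44.4% and 44.4%, beside 36.9% and 37.1% of all tested genes. Over this list the median log2 fold change was 0.07, against -0.01 over all tested genes. ITGB1, the integrin beta-1 chain, was 2.57-fold higher at 2023 ± 19.9 CPM in shp63 and 788 ± 0.464 CPM in shControl (SD, n = 2 each). PTPN6, which encodes SHP-1, was 1.38-fold higher, at 39.2 ± 0.274 CPM in shp63 and 28.5 ± 0.724 CPM in shControl. PTPN11, which encodes SHP-2, was called lower, at 228 CPM in shp63 and 276 CPM in shControl. EGFR was lower at 104 ± 1.33 CPM in shp63 and 191 ± 8.90 CPM in shControl, and the kinase gene SRC was lower at 36.7 ± 0.483 CPM in shp63 and 57.8 ± 0.190 CPM in shControl. The adjusted p was 6.19e-19 for ITGB1, 1.35e-09 for PTPN6, 5.97e-16 for EGFR and 1.67e-12 for SRC (edgeR with Benjamini-Hochberg). HAVCR2, the gene of the CEACAM1 ligand TIM-3, was at 0.109 CPM in shp63 and 0.0271 CPM in shControl and was not tested.

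Since CEACAM5, CEACAM6 and CEACAM7 are GPI-anchored, the anchor's synthesis and its other cargo were examined. Of 24 tested genes of GPI anchor synthesis and remodelling 15 were higher and 3 lower in shp63, or 62.5% and 12.5%, where 36.9% and 37.1% of all tested genes were higher and lower. The gene lists were all chosen with earlier results of these data known, so their shares are a description. The 3 lower genes were PIGA, PIGW and PGAP1. The median log2 fold change was 0.20. PGAP3, which remodels the anchor's lipid in the Golgi, was 2.57-fold higher at 64.5 ± 0.978 CPM in shp63 and 25.1 ± 0.782 CPM in shControl (SD, n = 2 each). PIGP, a subunit of the first enzyme of the pathway, was 1.93-fold higher. PGAP1, which removes an acyl chain from the anchor, was lower at 18.7 ± 0.751 CPM in shp63 and 44.6 ± 2.35 CPM in shControl. The subunits of the GPI transamidase, the complex that attaches the anchor to the protein, were higher for GPAA1, PIGT, PIGS and PIGK and not called for PIGU. The adjusted p was 5.16e-18 for PGAP3, 3.55e-15 for PIGP and 6.18e-16 for PGAP1 (edgeR with Benjamini-Hochberg). With library totals in place of TMM factors 12 of the 24 were higher and 6 lower, where 4658 of all 14901 tested genes were higher and 6591 lower.

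Other GPI-anchored surface proteins on the list were mostly higher. As this list was chosen with earlier results of these data known, its shares are a description. Of 26 tested genes 20 were higher and 6 lower (76.9% and 23.1%), where 36.9% and 37.1% of all tested genes were higher and lower. The median log2 fold change was 0.63, against -0.01 over all tested genes. PSCA, prostate stem cell antigen, had the largest fold in the list at 88.8 ± 1.82 CPM in shp63 and 6.63 ± 0.327 CPM in shControl (SD, n = 2 each), 13.4-fold higher. CD55, the complement regulator, was 5.23-fold higher at 2726 ± 30.1 CPM in shp63 and 521 ± 7.68 CPM in shControl. The 6 lower genes were LY6D, LY6K, GPC1, RECK, CD109 and CDH13. CDH13, a cadherin without a cytoplasmic tail, was at 22.5 ± 0.00378 CPM in shp63 and 48.5 ± 1.77 CPM in shControl, and GPC1, a cell surface proteoglycan, at 205 ± 2.86 CPM in shp63 and 292 ± 7.68 CPM in shControl. The adjusted p was 8.14e-24 for PSCA, 1.52e-22 for CD55, 3.61e-16 for CDH13 and 1.21e-12 for GPC1 (edgeR with Benjamini-Hochberg).

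Adhesion genes of the wider immunoglobulin superfamily were higher in 13 of 20 tested cases and lower in 5 (65% and 25%, where 36.9% and 37.1% of all tested genes were higher and lower). The list had 0.48 as its median log2 fold change, against -0.01 over all tested genes. It was likewise chosen with earlier results of these data known. MCAM, melanoma cell adhesion molecule, was 6.27-fold higher at 392 ± 6.08 CPM in shp63 and 62.5 ± 0.113 CPM in shControl (SD, n = 2 each). PVRL3, which encodes nectin-3, was 3.37-fold higher at 77.7 ± 0.798 CPM in shp63 and 23.1 ± 2.02 CPM in shControl. PVRL1, which encodes nectin-1, was lower at 249 ± 3.0 CPM in shp63 and 413 ± 2.46 CPM in shControl, and BCAM, a laminin receptor gene, was lower at 159 ± 5.48 CPM in shp63 and 224 ± 7.55 CPM in shControl. The adjusted p was 1.64e-24 for MCAM, 4.78e-18 for PVRL3, 1.16e-15 for PVRL1 and 7.61e-12 for BCAM (edgeR with Benjamini-Hochberg). CADM1 and JAM3 had 0 reads in all libraries.

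**Figure D3:**
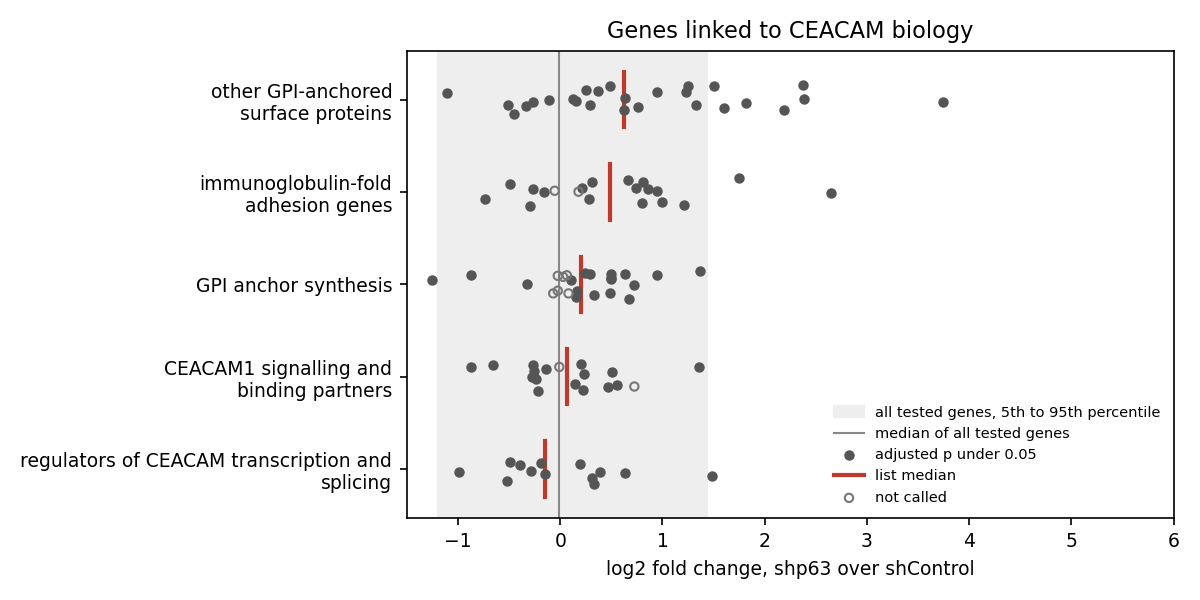
Fitted log2 fold change (shp63 over shControl) of each tested gene in 5 lists linked to CEACAM biology, filled where the adjusted p was under 0.05 and open where not called, with the list median in red. Grey shading spans the 5th to 95th percentile of all 14901 tested genes (-1.19 to 1.43), and the medians run between -0.15 for the regulators and 0.63 for other GPI-anchored proteins.

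The genes next to the members on chromosome 19 did not share 1 direction. Of the 30 neighbours described below, each counted once, 12 were higher, 9 lower and 9 not called (median log2 fold change -0.01). Over all tested genes 36.9% were higher and 37.1% lower. CEACAM7, CEACAM5 and CEACAM6 have the same 10 nearest tested neighbours outside the members, of which 2 were higher, 5 lower and 3 not called (median log2 fold change -0.12). The nearest below them was BCKDHA, a subunit gene of branched-chain ketoacid dehydrogenase, at -0.17 (adjusted p = 0.00586, edgeR with Benjamini-Hochberg). The nearest above was RPS19, a ribosomal protein gene that begins 109 kb from the start coordinate of CEACAM6, at -0.66 (adjusted p = 5.19e-14, edgeR with Benjamini-Hochberg). RPS19 had 23772 and 23708 reads in shp63, against 41448 and 38980 reads in shControl.

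CEACAM1 stood in other company. Of its 10 nearest tested neighbours 7 were higher, 1 lower and 2 not called, beside 36.9% higher and 37.1% lower over all tested genes. Their median log2 fold change was 1.29. The 5 above it are genes of the pregnancy-specific glycoproteins, relatives of the CEACAM proteins, and all 5 were higher. PSG3, the nearest, had 344 and 405 reads in shp63, against 9 and 23 reads in shControl, and PSG8 had 247 and 248 reads in shp63, against 13 and 11 reads in shControl. PSG genes have close paralogs too, so these counts also depend on read assignment. PSG3, PSG6 and PSG2 passed the filter on low counts only through their reads in shp63, which favours a higher call. In shControl PSG6 had 11 and 9 reads and PSG2 had 10 and 2 reads. The nearest below, LIPE, the hormone-sensitive lipase gene, was lower with 548 and 528 reads in shp63, against 1549 and 1433 reads in shControl (log2 fold change -1.37). The adjusted p was 2.08e-12 for PSG3, 5.94e-15 for PSG8 and 2.49e-15 for LIPE (edgeR with Benjamini-Hochberg). LIPE-AS1, which overlaps all of CEACAM1 on the opposite strand, had 6 and 14 reads in shp63, against 15 and 25 reads in shControl (adjusted p = 0.0659, edgeR with Benjamini-Hochberg). The strand setting of the counting is not given in the sources used here.

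Around CEACAM19, 3 of the 10 nearest tested neighbours were higher, 3 lower and 4 not called, beside 36.9% higher and 37.1% lower over all tested genes. Their median log2 fold change was -0.08. PVR below it was not called, as given above. BCL3 above it, a cofactor of NF-kB, was 1.73-fold higher with 2189 and 2024 reads in shp63, against 1262 and 1340 reads in shControl (adjusted p = 1.23e-12, edgeR with Benjamini-Hochberg).

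**Figure D4:**
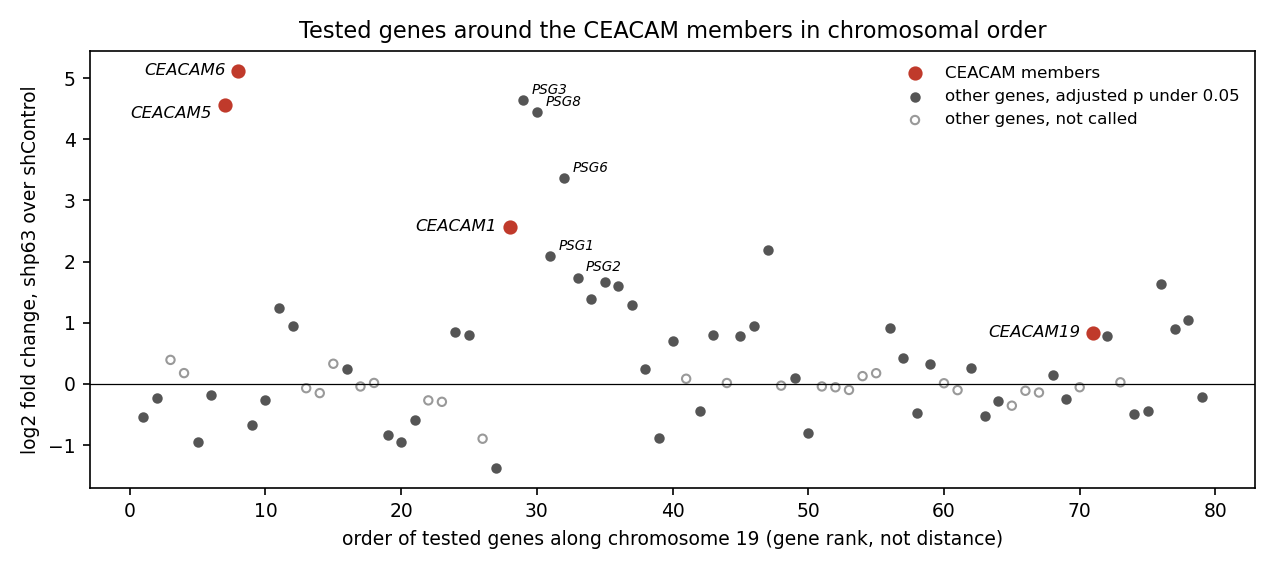
Fitted log2 fold change (shp63 over shControl) of 79 tested genes in their order along chromosome 19, from 400 kb below the start of CEACAM7 to 400 kb above that of CEACAM19, by rank and not by distance. CEACAM members are red, other genes are filled where the adjusted p was under 0.05, and the genes directly beside CEACAM5 and CEACAM6 lie below 0 while those next above CEACAM1 are PSG genes.

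Genes averaging 5 CPM or more were ranked by how closely their log2 CPM over the 4 libraries, centred on its mean, followed each member. With 4 libraries in 2 groups this likeness mostly reflects the size of the group difference. C8orf4 was nearest to CEACAM6 (distance 0.267), followed by IGFBP5, which encodes a binding protein of insulin-like growth factors (0.394), and FER1L6, a ferlin gene (0.627). C8orf4 averaged 125 ± 0.993 CPM in shp63 and 4.31 ± 0.0297 CPM in shControl (SD, n = 2 each). C8orf4 was also nearest to CEACAM5 (0.357), ahead of CEACAM6 itself (0.571) and RND1 (0.617). For CEACAM1 the nearest were SERPINA1, the alpha-1 antitrypsin gene (0.264), VSIG10L (0.278) and ALDH1A2, a gene of retinoic acid synthesis (0.319). SERPINA1 averaged 14.6 ± 0.145 CPM in shp63 and 2.28 ± 0.300 CPM in shControl. For CEACAM19 they were SIGIRR, a brake on interleukin-1 and Toll-like receptor signalling (0.0229), ACAD10 (0.0361) and UBA7, the activating enzyme of the ISG15 conjugation pathway (0.0369). SIGIRR averaged 46.0 ± 2.33 CPM in shp63 and 25.7 ± 0.111 CPM in shControl.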

How the data were processed

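Poly(A)+ RNA libraries from 4 H226 cultures were made with a stranded kit, per the labels' protocols. Reads were aligned to GRCh37 with TopHat2 2.0.13 and counted with HTSeq 0.6.1, per the series' design text and the submitters' processing notes. The authors deposited raw read counts for each gene symbol, without normalisation, and column names tied all 4 columns to their samples.

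The members and lists were chosen with earlier results of these data known. A fit of all 4 libraries used edgeR 4.0.16 under R 4.3.3 (TMM factors, filterByExpr at count 10 and total 15, robust quasi-likelihood fit with group as the only term), which kept 14901 of 25369 genes. P-values were adjusted by Benjamini-Hochberg over all of them, with calls at 0.05, and measure the spread between the cultures of a group. The fit was checked on simulated data. For a single gene, the exact permutation test (2 libraries per group, two-sided) has 0.333 as its smallest p, so calls rest on spread shared across genes. Replicates differed by more than sampling noise (chi-square per degree of freedom 3.60 in shp63 and 3.30 in shControl).

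Positions, canonical transcripts and lengths came from GENCODE (release v44 lifted to GRCh37), where 21251 symbols matched, and promoters from RefSeq (GRCh38.p14), where 4 of the 5 members had an entry. Exact windows were searched in sense transcripts. Coding sequences and promoters were aligned with Biopython 1.88. Levels per kilobase divide CPM by canonical transcript length. Named genes were the members, TP63, up to 2 called genes per direction of smallest adjusted p in each list with at least 5 CPM on average, the 3 nearest profiles per member and direct neighbours. Others were named, and the plotted stretch of chromosome 19 was set, after values were seen. Alternatives were RLE size factors, library totals, other filters, DESeq2 1.42.0, limma-voom (limma 3.58.1), a replicate block and each library left out. For the members the ratio of mean CPM was added. A test against a 1.5-fold change was run for the counts of called genes only.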

Additional observations from a re-analysis of the deposited data

How the results depend on the processing

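CEACAM1, CEACAM5, CEACAM6 and CEACAM19 stayed higher in shp63 under all 12 alternatives run for each. The test against a 1.5-fold change is not among these 12. As the members were selected on this contrast, the alternatives describe only how the values move with the processing. Their log2 fold changes ranged from 2.29 to 2.91 for CEACAM1, 4.39 to 4.75 for CEACAM5, 5.04 to 5.13 for CEACAM6 and 0.75 to 0.90 for CEACAM19, leaving out each library included. With library totals CEACAM6 was at 5.04, against 5.12 with TMM factors, a shift beyond its very small replicate spread that comes from the scaling itself. A test against a 1.5-fold change called 1894 genes higher and 1491 lower, in place of 5499 and 5534, since it asks for a larger difference. Replicate numbers are shared between the groups, and the labels do not say whether they mark a shared batch. Deviations of same-numbered libraries from their group means correlated at -0.24. With 2 libraries per group, crossed pairs give the same value with the opposite sign. Whether cultures shared a batch was not tested. The replicate block called 5408 genes higher and 5450 lower, and the crossed pairing, chosen after seeing the data, 5659 and 5728. CEACAM7 and the 8 other CEACAM genes are limited by depth, and CEACAM5 by its 7 reads in shControl.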
